A study of Canis lupus familiaris with 4 samples.

Results

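The miR-181 family was examined in small RNA sequencing of extracellular vesicles (EVs) from a pair of canine mammary gland adenocarcinoma cell lines. CHMp came from the primary tumor and CHMm from a metastasis of the same dog, each as 1 line, and EVs of CHMp are called pTDEs and those of CHMm mTDEs. Cells were grown with fetal bovine serum and then kept in serum-free medium, from which the EVs were collected without any other treatment, and each line had 2 replicate libraries. The paper calls the replicates biological, but no source used here says whether they came from separate cultures, so p-values measure only the spread between these libraries. The family was taken as every row of the deposited miRNA table named cfa-mir-181a to cfa-mir-181d, with or without a copy number. These were 6 of 673 rows, of which 508 are known and 165 predicted miRNAs. The rows cfa-mir-181a-1 and cfa-mir-181a-2 had equal values in all libraries and are counted once, as miR-181a, which leaves 5 distinct rows.

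MicroRNAs of the miR-181 family share the seed, the stretch near the 5′ end that pairs with target mRNAs, so that the members can act on overlapping sets of genes. miR-181a is best known from lymphocytes, where it sets the sensitivity of T cells to antigen and takes part in B cell development. In breast cancer cells the family has been described as induced by TGF-β and as linked to stem-like growth. Mature miR-181a and miR-181b each come from a pair of precursors, whereas miR-181c and miR-181d have a single precursor each. All 6 rows matched a gene by name in RefSeq's annotation of UU_Cfam_GSD_1.0, which lists them as 3 pairs of neighboring genes. MIR181A-1 lies beside MIR181B-1, and the next annotated gene is PTPRC, which encodes the leukocyte antigen CD45. MIR181A-2 lies beside MIR181B-2 within NR6A1, a gene of an orphan nuclear receptor. MIR181C lies beside MIR181D, and MIR181D is next to NANOS3, a germ cell gene. The annotation served only for names and neighbors, because the deposited table was made on CanFam3.1.

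Levels are given in CPM, reads scaled to a library total of 1000000. They were recovered from the deposited whole numbers, each of which was taken as log2(CPM + 1) times a factor that differs by library. This form was inferred, because the numbers are described as CPM but their low values are unevenly spaced. Summed over all rows, the recovered libraries held 6296519 and 5053540 reads in pTDE replicates 1 and 2 and 3457171 and 2330384 reads in mTDE replicates 1 and 2. A read listed on several rows enters these totals more than once. The worth of 1 read in CPM was largest in mTDE replicate 2. Markers of other cell types were read from the same table. Of 7 miRNAs typical of epithelium, cfa-mir-141, cfa-mir-200a, cfa-mir-200b and cfa-mir-429 were listed at 0 in both pTDE libraries, and the list summed to 73.9 to 104 CPM in pTDEs and 23718 to 26413 CPM in mTDEs. Of 6 distinct blood markers, cfa-mir-144 was at 0 in every library, and the list summed to 261 and 893 CPM in pTDE replicates 1 and 2, against 706 and 3018 CPM in the mTDE replicates. The 4 distinct mesenchymal markers summed to 589 and 926 CPM in pTDEs and to 81.6 and 762 CPM in mTDEs, in the order of replicates, and none was at 0 in both libraries of a line. The 7 distinct muscle markers summed to 286 and 389 CPM in pTDEs and to 19.7 and 149 CPM in mTDEs, with cfa-mir-208a and cfa-mir-208b at 0 in every library and cfa-mir-1-1 and cfa-mir-206 also at 0 in both mTDE libraries. The liver marker cfa-mir-122 was at 98.5 to 158 CPM in pTDEs and 364 to 570 CPM in mTDEs. The sums of the blood, mesenchymal and muscle lists were thus higher in replicate 2 of both cell lines. Each blood marker above 0 followed its sum, whereas some mesenchymal and some muscle markers were lower in replicate 2 of each line. The part of these cell types in the miR-181 values was not tested.

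To describe the family in EVs, its level was first summed over the 5 distinct rows. The sum was 4151 and 3106 CPM in pTDE replicates 1 and 2 and 6460 and 4856 CPM in mTDE replicates 1 and 2. Both mTDE libraries thus lay above both pTDE libraries, with means of 5658 ± 1134 CPM (SD, n = 2) in mTDEs and 3628 ± 739 CPM in pTDEs, a ratio of 1.56. The sum of a library corresponded to 0.311% to 0.646% of its CPM. When known miRNAs were grouped by their number, with equal rows counted once, miR-181 ranked between 19 and 29 of 141 numbers in the 4 libraries. With median-ratio size factors in place of a fixed library total, the cell lines overlapped, at 4615 and 3302 in pTDEs and 7433 and 3570 in mTDEs. This scaling lowered mTDE replicate 2 relative to the other libraries, by a size factor of 1.36 against 0.869 to 0.941.

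The a/b clusters made up most of the family in every library. Together, miR-181a and the miR-181b rows held 86.5% ± 2.37 (SD, n = 2) of the summed CPM in pTDEs and 89.4% ± 4.57 in mTDEs. The sum of the a/b rows exceeded that of the c/d cluster 7.43-fold and 5.57-fold in pTDE replicates 1 and 2 and 12.5-fold and 6.21-fold in mTDE replicates 1 and 2. The cluster of miR-181c and miR-181d summed to 492 and 473 CPM in pTDEs and 478 and 673 CPM in mTDEs, so that the cell lines overlapped. The a/b rows summed to 3658 and 2633 CPM in pTDEs and 5982 and 4183 CPM in mTDEs, with no overlap. A read assigned to both miR-181b rows enters these sums more than once. With b-2 as the single miR-181b row, the family summed to 2919 and 2208 CPM in pTDEs and 4232 and 3572 CPM in mTDEs. The ratio of the a/b rows to the c/d cluster then fell to 4.93 and 3.67 in pTDEs and 7.85 and 4.31 in mTDEs, and the a/b rows held 83.1% and 78.6% of the family in pTDEs and 88.7% and 81.2% in mTDEs.

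**Figure D1:**
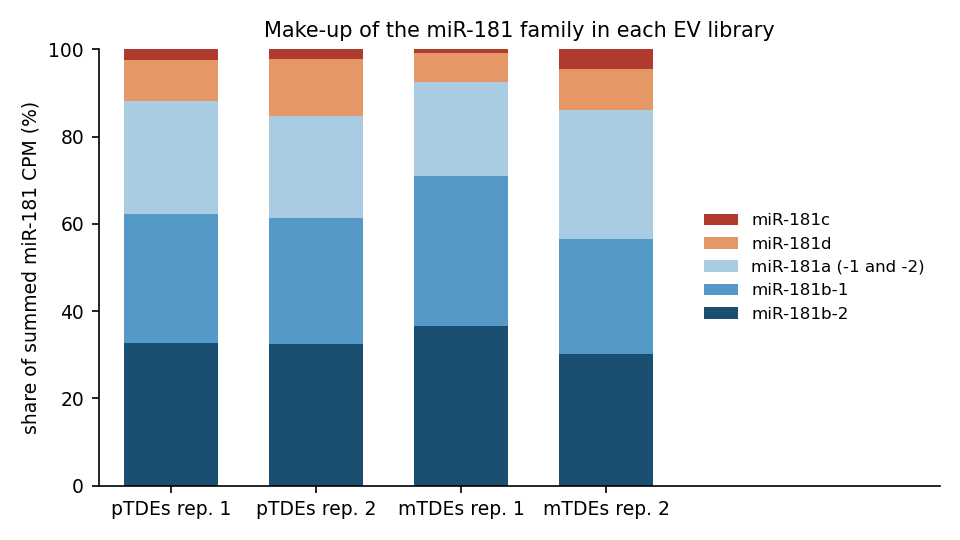
Share of the summed miR-181 CPM (vertical axis, percent) held by each distinct row in each of the 4 EV libraries. The blue bars of miR-181a and miR-181b fill between 84.8% and 92.6% of every library, and miR-181c takes between 0.878% and 4.63%.

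miR-181a was at 1075 and 725 CPM in pTDE replicates 1 and 2 and at 1391 and 1439 CPM in mTDE replicates 1 and 2. The mTDE libraries were close to each other and above both pTDE libraries, of which replicate 2 was the lower. The means were 900 ± 247 CPM (SD, n = 2) in pTDEs and 1415 ± 33.6 CPM in mTDEs, and miR-181a ranked 61 of 222 distinct known miRNAs identified in pTDEs and 59 of 192 in mTDEs. In limma on log2(CPM + 1), its log2 fold change of pTDEs over mTDEs was -0.68 (standard error 0.41, 95% interval -1.77 to 0.41, adjusted p = 0.39), so that no difference was called. Without pTDE replicate 2 the log2 fold change was -0.40, and without pTDE replicate 1 it was -0.96. Because a-1 and a-2 had equal values, the contribution of each a/b cluster to miR-181a cannot be told apart.

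miR-181b was listed under both of its precursors, and the 2 rows were close but not equal. cfa-mir-181b-2 was at 1352 and 1010 CPM in pTDE replicates 1 and 2 and at 2362 and 1460 CPM in mTDE replicates 1 and 2. cfa-mir-181b-1 was at 1231 and 898 CPM in pTDEs and at 2228 and 1284 CPM in mTDEs, in the same order of replicates. In both rows the lowest mTDE value lay above the highest pTDE value, and mTDE replicate 1 stood above the other libraries. The log2 fold change was -0.67 for cfa-mir-181b-2 (standard error 0.44, 95% interval -1.85 to 0.51, limma adjusted p = 0.43). For cfa-mir-181b-1 it was -0.69 (standard error 0.47, 95% interval -1.93 to 0.56, limma adjusted p = 0.44). Without mTDE replicate 1 these values were -0.32 and -0.29, and without mTDE replicate 2 they were -1.01 and -1.08. Without pTDE replicate 2 they were -0.46 for both rows.

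The row b-2 was higher than b-1 in every library, by 121 and 113 CPM in pTDE replicates 1 and 2 and by 134 and 176 CPM in mTDE replicates 1 and 2. The ratio of the rows stayed between 1.06 and 1.14. Of 28 sets of numbered copies with at least 2 rows above 0, 19 had equal values in all libraries and 9 did not, miR-181b among them. Among those 9, the copies of miR-196a and miR-218 also reached ratios of 1.19 and 1.16, whereas those of let-7a stayed within 1.01. Quantification was by precursor, so that a miR-181b read can be counted on both rows, and the rows are not treated as independent measurements.

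miR-181d was nearly level. It was at 390 and 404 CPM in pTDE replicates 1 and 2 and at 421 and 448 CPM in mTDE replicates 1 and 2. The mTDE libraries were above the pTDE libraries by a narrow margin, with means of 435 ± 19.1 CPM and 397 ± 9.93 CPM (SD, n = 2). In each neighboring pair of these values, the exact Poisson 95% intervals overlapped: 374 to 405 CPM, 386 to 422 CPM, 400 to 444 CPM and 422 to 476 CPM in the same order, which cover counting error only. The interval of mTDE replicate 2 lay above that of pTDE replicate 1, and it met that of pTDE replicate 2 to within the worth of 1 read. The log2 fold change was -0.13 (standard error 0.42, 95% interval -1.27 to 1.01, limma adjusted p = 0.88). The highest library was 1.15 times the lowest, the smallest such ratio among the 177 distinct known miRNAs, members included, with at least 10 reads in every library, where the median ratio was 3.48. With median-ratio size factors the ratio of miR-181d was 1.47, at rank 10 of 177, and its log2 fold change was 0.11. The comparison of such ratios was added once the values had been seen.

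miR-181c was the lowest member, and on CPM its mTDE replicates were the furthest apart of the family. It was at 103 and 69.1 CPM in pTDE replicates 1 and 2, from 647 and 349 reads, and at 56.7 and 225 CPM in mTDE replicates 1 and 2, from 196 and 524 reads. The pTDE values lay between the mTDE values, which were lowest in replicate 1 and highest in replicate 2. The exact Poisson 95% intervals of the mTDE replicates were 49.0 to 65.2 CPM and 206 to 245 CPM, so that counting error did not cover their gap. In the order of replicates, the blood markers summed to 706 and 3018 CPM in mTDEs and to 261 and 893 CPM in pTDEs. The mesenchymal and muscle sums were also higher in mTDE replicate 2, at 762 and 149 CPM, against 81.6 and 19.7 CPM in replicate 1. The part of these markers in the miR-181c values was not tested. The mTDE replicates of miR-181c differed by 1.99 on the log2 scale, and 21.2% of 222 distinct rows with 10 or more reads in each replicate differed by more. Its log2 fold change was -0.42 (standard error 0.92, 95% interval -2.89 to 2.05, limma adjusted p = 0.81). Without mTDE replicate 2 it turned to 0.56, and without mTDE replicate 1 it was -1.41. The other members differed between mTDE replicates by 0.05 to 0.80 on the log2 scale, below the median of 0.92 over those rows. This contrast was lost with median-ratio size factors, under which the mTDE replicates differed by 1.34 for miR-181c, 1.44 for b-1, 1.34 for b-2, 0.60 for miR-181a and 0.56 for miR-181d, against a median of 0.82.

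**Figure D2:**
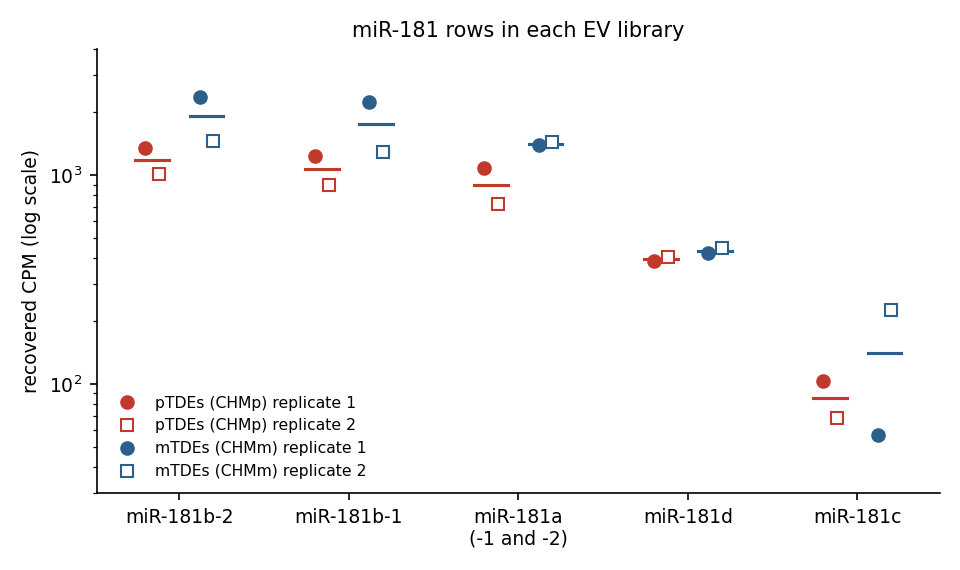
Recovered CPM (vertical axis, log scale) of the 5 distinct miR-181 rows in the 4 EV libraries, with pTDEs in red, mTDEs in blue, replicate 1 as filled circles and replicate 2 as open squares; lines are means. miR-181d stays between 390 and 448 CPM, the a/b rows are higher in mTDEs, and the mTDE replicates of miR-181c lie on both sides of the pTDE values.

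In the order of levels, b-2, b-1, miR-181a, miR-181d and miR-181c followed each other in 3 of 4 libraries, and in mTDE replicate 2 miR-181a lay above b-1. miR-181a was 1.80-fold to 3.30-fold above miR-181d, and miR-181d was 1.99-fold to 7.43-fold above miR-181c. The log2 ratio of miR-181a over b-1 was -0.25 ± 0.08 (SD, n = 2) in pTDEs, where b-1 was the higher in both libraries, and -0.26 ± 0.60 in mTDEs, where the difference was within the spread. b-2 was above miR-181a in every library, 1.26-fold and 1.39-fold in pTDE replicates 1 and 2 and 1.70-fold and 1.01-fold in mTDE replicates 1 and 2. By rank, b-2 was at 54 of 222 and b-1 at 58 in pTDEs, and at 50 and 52 of 192 in mTDEs. miR-181d ranked 76 in pTDEs and 87 in mTDEs. miR-181c ranked 116 and 117, with means of 85.9 ± 23.8 CPM and 141 ± 119 CPM (SD, n = 2), under the median identified miRNA (103 CPM in pTDEs, 268 CPM in mTDEs).

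Whether the a/b clusters and the c/d cluster moved apart between the cell lines was asked from log2 ratios within each library, in which the scaling of libraries cancels apart from the pseudocount of 1 CPM. All 10 pairs of distinct rows were compared with a two-sided exact permutation test, for which the smallest p with 2 libraries against 2 is 0.333. In pTDE replicates 1 and 2, miR-181a over miR-181d gave log2 ratios of 1.46 and 0.84, against 1.72 and 1.68 in the mTDE replicates. This was the single pair with no overlap between the cell lines, at -0.55 for pTDEs minus mTDEs (exact permutation p = 0.333, adjusted p = 1). For the b rows over miR-181d the corresponding differences were -0.54 and -0.55 with overlapping libraries. The log2 ratio of miR-181a over miR-181c was 3.37 in both pTDE libraries, and 4.59 and 2.67 in mTDE replicates 1 and 2. The ratio of miR-181c over miR-181d was -1.91 and -2.53 in pTDEs and -2.87 and -0.99 in mTDEs, so that the members of the c/d cluster also differed from each other by unequal amounts. With this permutation test no pair could pass 0.05, and no other test of the pairs was run.

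Of the 5 distinct rows, 0 passed an adjusted p-value of 0.05 in limma, against 1.84% of the 326 tested rows (6 rows, all lower in pTDEs). At an unadjusted p-value under 0.05 none of the 5 passed either, against 19.6% of the tested rows. All 5 log2 fold changes were negative, with a median of -0.67, or -0.54 over 4 rows with b-2 as the single miR-181b row, against a median of -0.03 over the tested rows. Of the tested rows, 63.2% had a larger log2 fold change in size than miR-181a. Between the cell lines, 4 of the 5 rows, or 3 of 4 with a single miR-181b row, did not overlap and were lower in pTDEs, where 27.3% of the tested rows did the same, and none was higher in pTDEs without overlap, against 26.1%. With median-ratio size factors the median of the tested rows moved by 0.25 to 0.22, and 0 of the 5 rows remained without overlap, against 23.9% of the tested rows lower and 30.7% higher in pTDEs. Under that scaling the log2 fold changes were -0.44 for miR-181a, -0.43 and -0.44 for b-2 and b-1, -0.18 for miR-181c and 0.11 for miR-181d. The separation of the a/b rows and miR-181d between the cell lines thus depended on the scaling.

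**Figure D3:**
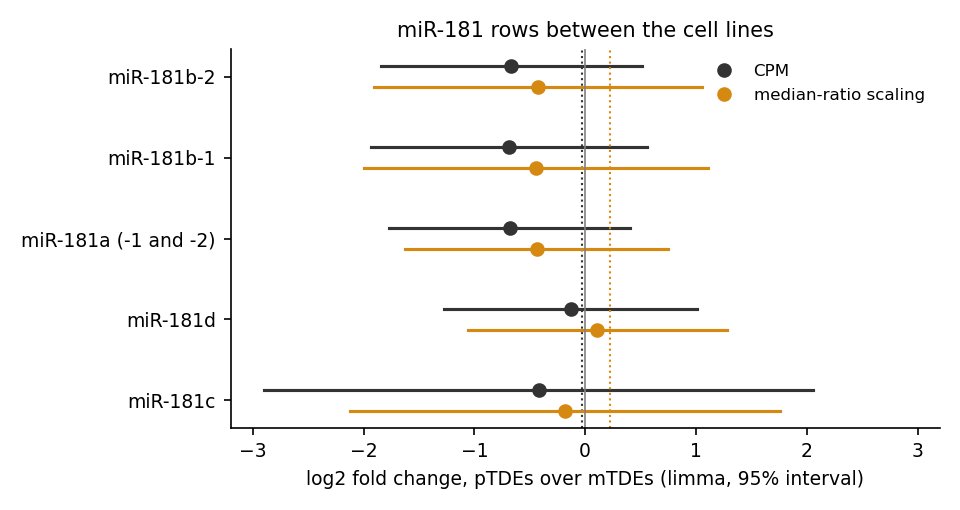
Log2 fold change of pTDEs over mTDEs (horizontal axis) with its 95% interval from limma for the 5 distinct miR-181 rows, on CPM (dark) and with median-ratio size factors (orange); dotted lines are the medians of all tested rows, at -0.03 and 0.22. Every interval includes 0, and that of miR-181c is the widest on CPM, from -2.89 to 2.05.

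**Figure D4:**
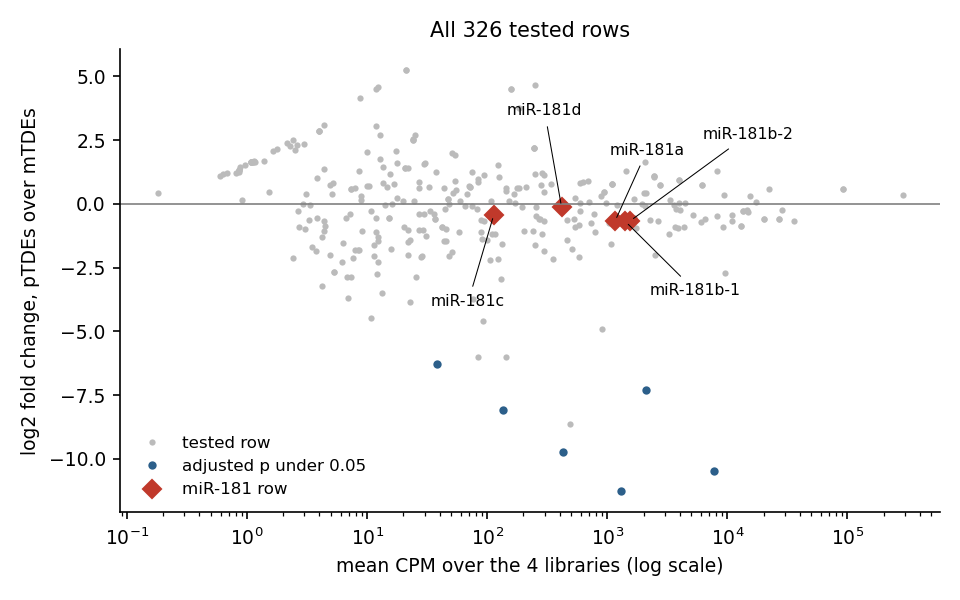
Log2 fold change of pTDEs over mTDEs (vertical axis) against the mean CPM over the 4 libraries (horizontal axis, log scale) for the 326 tested rows, with the miR-181 rows as red diamonds and the 6 rows under an adjusted p-value of 0.05 in blue. The miR-181 rows lie between -0.13 and -0.69, far from the 6 called rows.

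The miRNAs with the pattern closest to miR-181a over the 4 libraries were searched among the 177 distinct known rows outside the family that were above 0 in all libraries, by the root mean square difference of log2(CPM + 1) after centering each row. The closest was cfa-mir-330, with a difference of 0.07, at 11.8 and 7.13 CPM in pTDEs and 13.9 and 14.2 CPM in mTDEs. It was followed by cfa-mir-24-1 (equal to cfa-mir-24-2, 0.18), cfa-mir-152 (0.18), cfa-mir-423a (0.21) and cfa-mir-671 (0.23). On the same measure b-2 was at 0.27 and b-1 at 0.30, miR-181d at 0.35 and miR-181c at 0.69, so that 67 other miRNAs were closer to miR-181a than miR-181c was. With 4 libraries, such likeness is a description.

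miRNAs discussed together with the family were read beside it. Of 12 distinct miRNAs linked to epithelial-mesenchymal transition and TGF-β, 0 were higher and 6 were lower in pTDEs by limma, against 0% and 1.84% of the tested rows. Their median log2 fold change of -3.37, against -0.03 over the tested rows, falls in a gap between the 6 called miRNAs, at -11.27 to -6.28, and the other 6, at -0.45 to 1.29. The 6 called miRNAs were 5 members of the miR-200 family, which maintain the epithelial state, and miR-205. With the replicate number as a block, 5 of the 12 were called lower. The same number was called with a pseudocount of 5 CPM and with all rows above 0 in at least 1 library. In this list, 3 miRNAs were called lower without pTDE replicate 1, 2 without pTDE replicate 2 and 0 without either mTDE library, where the lowest adjusted p-values of the list in limma were 0.11 and 0.09. cfa-mir-155, which is induced by TGF-β and active in lymphocytes, was at 9027 and 14316 CPM in pTDEs and at 3708 and 5803 CPM in mTDEs, which gave 1.29 on the log2 scale in favor of pTDEs (SE 0.44, adjusted p = 0.20 in limma). Of 6 lymphoid and myeloid miRNAs, including cfa-mir-155, 0 passed in either direction, against 1.84% of the tested rows, and the median log2 fold change was -0.62, against -0.03. These 6 went both ways, from -1.46 for cfa-mir-223 to 2.69 for cfa-mir-146b. In this list cfa-mir-150 was at 5.56 to 46.8 CPM and cfa-mir-223 at 12.4 to 78.1 CPM over the 4 libraries, below miR-181a in each library.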

How the data were processed

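Per the labels and the paper's methods, small RNA of EVs was isolated after ultrafiltration and ultracentrifugation and prepared with a NEXTflex kit. The paper names both HiSeq and NovaSeq platforms of Illumina, with paired-end reads of differing lengths. It does not say which library was run on which platform, and an effect of the platform was not tested. The authors trimmed reads with cutadapt, removing 4 bases at the start and keeping 22 to 30 bases, merged forward and reverse reads, and quantified known and predicted miRNAs by precursor with miRDeep2 on CanFam3.1; versions are not given in the sources used here. The values the authors deposited are treated as a score: whole numbers described as CPM whose low values are unevenly spaced. The table also holds the authors' edgeR comparison of the cell lines (fold changes, average levels, p-values), which was not used.

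CPM were recovered as 2^(value/s) - 1, with s solved per library (495, 493, 487 and 426 for pTDE and mTDE replicates 1 and 2) so that the total is 1000000. The worth of 1 read (0.159, 0.198, 0.289 and 0.429 CPM) was the largest step that divided 100% of distinct values under 20 CPM, allowing for rounding of the deposited numbers and of CPM to 2 decimals. Whole reads are resolved up to 112 to 263 CPM, which covers miR-181c only, so the intervals of the other members rest on reads rounded from CPM. The reads of paralogs with similar sequences may have been shared between rows.

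Python 3.11.15 (numpy 2.4.6, pandas 2.3.3, scipy 1.17.1) and R 4.3.3 with limma 3.58.1 were used. limma with eBayes and a mean-variance trend was fitted to log2(CPM + 1) on the 326 rows that both libraries of CHMp, or both of CHMm, held above 0, and p-values were adjusted over them after Benjamini and Hochberg; the prior degrees of freedom were 2.4. All 5 distinct members passed this filter. The conversion and the fit were run on simulated data made with the same scaled log2(CPM + 1) form and with changes larger than those of the members. These runs therefore cannot test whether the deposited numbers have that form. A miRNA counted as identified in a cell line when neither of its libraries was at 0. The miRNAs named are the members, the 5 rows most like miR-181a, and lists of markers and of miRNAs discussed with the family; for lists, cfa-mir-155, cfa-mir-150, cfa-mir-223 and cfa-mir-146b were given as examples after their values were seen, as were miR-196a, miR-218 and let-7a among numbered copies. The members and lists were chosen with earlier results of these data known. Alternatives were other pseudocounts, row filters, scalings and models, a replicate block and leaving out each library.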

Additional observations from a re-analysis of the deposited data

How the results depend on the processing

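The member log2 fold changes stayed above an adjusted p-value of 0.05 in every limma fit run. The values turned positive with the deposited whole numbers taken as CPM, at 0.019 for miR-181a, 0.022 and 0.026 for b-1 and b-2, 0.039 for miR-181c and 0.095 for miR-181d, and for miR-181d also with median-ratio size factors (0.11); the other 49 values with all libraries kept the sign. Over the 11 alternatives with all libraries, the adjusted p-value ranged from 0.37 to 0.90 for miR-181a, 0.43 to 0.91 for b-1, 0.42 to 0.90 for b-2, 0.79 to 0.89 for miR-181c and 0.54 to 0.92 for miR-181d. With each library left out, where the lone library of a line is assumed to vary like the other line, the log2 fold change ranged from -0.96 to -0.40 for miR-181a, -1.08 to -0.29 for b-1, -1.01 to -0.32 for b-2, -1.41 to 0.56 for miR-181c and -0.18 to -0.09 for miR-181d.

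Rows called higher in pTDEs numbered 0, and 28 with a pseudocount of 0.1 CPM, 5 with median-ratio size factors, 39 with deposited numbers as CPM, 4 without a trend, 5 with voom and 4 with known miRNAs only. Rows called lower numbered 6, and 11 each with a pseudocount of 0.1 CPM, deposited numbers as CPM and voom. With 1 library left out they numbered 37 higher and 4 lower without either pTDE library, and 0 higher and 0 lower without either mTDE library. The cause was not tested. Replicates with the same number shared only the number in the labels; their deviations correlated at 0.15 over 326 rows. With the replicate number as a block, 0 rows were higher and 7 lower, and the adjusted p-value was 0.45 for miR-181a.

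For the pairs, the difference of the log2 ratio of miR-181a over b-1 was 0.0054 and turned to -0.0029 with deposited numbers as CPM. With 1 library left out it ranged from -0.42 to 0.43 for miR-181a over b-1, -0.38 to 0.36 over b-2, -1.22 to 0.70 over miR-181c and -0.86 to -0.24 over miR-181d. It ranged from -0.069 to 0.033 for b-1 over b-2, -1.65 to 1.12 for b-1 and -1.58 to 1.08 for b-2 over miR-181c, -0.996 to -0.111 and -0.93 to -0.14 over miR-181d, and -1.23 to 0.65 for miR-181c over miR-181d.

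The family total of 3628 CPM in pTDEs and 5658 CPM in mTDEs became 22277 and 21760 with deposited numbers as CPM, 4528 and 7074 with every row counted, and, in an alternative chosen after seeing the data, 2564 and 3902 with 1 miR-181b row counted, where the mean share of the a/b clusters also moved to 80.9% in pTDEs and 84.9% in mTDEs. It ranged from 3106 to 4151 CPM in pTDEs and from 4856 to 6460 CPM in mTDEs with 1 library left out.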
